A study of Mus musculus with 6 samples.

Results

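Most miRNAs are cut out of a long primary transcript by the nuclease Drosha and then out of a hairpin by Dicer. A small set reaches Dicer by another route. Mirtrons are short introns that the spliceosome releases and that fold, once the lariat is opened, into a hairpin ready for Dicer, so that splicing and not Drosha sets an end of each arm. Capped-hairpin miRNAs come from very short RNA polymerase II transcripts that already are hairpins. The cap of the transcript then sits at the 5′ end of the hairpin. Both routes were taken as given here, and neither a cap nor independence from Drosha was measured in the data below. The mature miRNA of either route is loaded into Argonaute, the core of the silencing complex (RISC). The 8 miRNAs described here were chosen by their miRNA label in the deposited table, after levels in these libraries had been seen, and their levels below are a description. They were 6 mirtron products (mmu-miR-877-5p, mmu-miR-877-3p, mmu-miR-3102-3p, mmu-miR-3102-5p, mmu-miR-702-3p and mmu-miR-1981-5p) and 2 capped-hairpin miRNAs (mmu-miR-320-3p and mmu-miR-484), out of 1101 labels. They covered 726 of the 143934 read sequences, and none of these sequences carried a second label.

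RISC-bound short RNAs (R-sRNAs) came from the cortex and hippocampus, combined, of BL6 mice (C57BL/6J males by the methods of the study). There were 3 libraries of mice aged 2 months (2M, young) and 3 of mice aged 18 months (18M, old), and the labels name no further allele or agent in either group. Ago1-4 were pulled down with a peptide of GW182, a protein that binds Argonaute, and the bound RNA was sequenced. Between 19272046 and 25080484 reads per library were recovered from the deposited RPM, in which every library is scaled to the same total, and 3 reads were worth 0.120 to 0.156 RPM. The neural miRNAs miR-124-3p (92539 to 134320 RPM) and miR-9-5p (25147 to 56103 RPM) were abundant in every library, while the liver miRNA miR-122-5p was at 6.17 to 7.68 RPM. The muscle miRNAs miR-1a-3p (96.1 to 226 RPM) and miR-133a-3p (79.3 to 218 RPM) were also present in every library. The red blood cell miRNA miR-451a ranged from 1522 to 2942 RPM in the young and from 830.2 to 1949 RPM in the old mice, and its part in the values below was not tested.

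The mature sequences below are those of RefSeq and are shown because they let the seeds of the miRNAs be compared. Capitals mark the seed, bases 2 to 8 counted from the 5′ end, which pairs with target mRNAs. Of the 8 miRNAs, 7 had a sequence in the RefSeq table, all but miR-320-3p.
miR-484: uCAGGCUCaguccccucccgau
miR-877-5p: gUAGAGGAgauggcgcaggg
miR-877-3p: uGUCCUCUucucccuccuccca
miR-3102-5p: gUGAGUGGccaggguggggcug
miR-3102-3p: gAGCACCCcauuggcuacccaca
miR-702-5p: gUGAGUGGggugguuggcaug
miR-702-3p: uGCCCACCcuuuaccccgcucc
miR-1981-5p: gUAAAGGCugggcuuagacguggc
All the mirtron 5p arms in this list began with GU, the first bases of the intron. The RefSeq table held a mature sequence for 924 of the 1101 labels, and seeds were compared within it only. Apart from miR-3102-5p and miR-702-5p, which had the same seed, no listed miRNA shared its seed with another mature miRNA of that table. The sequences were rich in G and C, from 58.3% in miR-1981-5p to 72.7% in miR-3102-5p.

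The hairpins of the mirtrons were placed on the introns of their host genes in GENCODE M21 (GRCm38). The Mir877 hairpin (chr17:35960730-35960814, minus strand) was exactly intron 12 of Abcf1, a gene for a translation factor of the ABC family. Mir3102 (chr7:100882306-100882409, minus strand) was exactly intron 8 of Arhgef17, and in another transcript of that gene it lay in an exon. Mir1981 (chr1:184822407-184822488, minus strand) was exactly intron 5 of Marc2, a gene for a mitochondrial reductase. Mir702 (chr5:136991433-136991541, plus strand) did not fill its intron. Its annotated hairpin began 9 bases inside the upstream exon of Plod3, a lysyl hydroxylase gene, and stopped 2 bases before the end of intron 13. Among all annotated mouse miRNA hairpins, 29 had each end within 10 bases of the ends of an intron of at most 300 bases, and 22 of them matched an intron base for base. Of the 29, 19 had reads and 7 had an arm that averaged 10 RPM or more. The arms of that size outside the 4 mirtrons described here were miR-1224-5p, miR-1224-3p, miR-3547-3p and miR-6944-3p.

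The hairpins of Mir877 and Mir1981 are shown because they are the introns themselves. Capitals mark the first and the last 2 bases of the intron.
Mir877: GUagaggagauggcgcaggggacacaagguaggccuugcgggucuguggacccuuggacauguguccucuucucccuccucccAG
Mir1981: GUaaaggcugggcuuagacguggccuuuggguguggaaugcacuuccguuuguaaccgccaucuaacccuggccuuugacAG
The capped-hairpin genes lay beside promoters and not in introns of their own strand. Mir320 (chr14:70443510-70443591, plus strand) was 63 bases from the nearest start of Polr3d, a subunit gene of RNA polymerase III on the opposite strand. Mir484 (chr16:14159626-14159692, plus strand) overlapped an exon of Marf1, also on the opposite strand, 359 bases from a start of that gene.

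The capped-hairpin miRNAs were the most abundant of the set. miR-320-3p was at 1327, 870.3 and 1041 RPM in 2M replicates 1, 2 and 3 and at 1216, 1304 and 1234 RPM in 18M replicates 1, 2 and 3. Its lowest library was 2M replicate 2, and the ages overlapped. miR-484 was at 460.2, 613 and 813 RPM at 2M and at 694, 695 and 594 RPM at 18M, so the 2M libraries held both its lowest and its highest value. By mean level, miR-320-3p ranked 98 and miR-484 133 among the 1101 labels.

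Of the mirtron products, miR-3102-3p was highest. It was at 193, 169 and 184 RPM in the 2M libraries and at 265, 278 and 287 RPM in the 18M libraries, and every 18M library was above every 2M library. miR-877-3p followed with 69.2, 72.3 and 68.8 RPM at 2M and 74.2, 76.6 and 76.8 RPM at 18M. These ages did not overlap either, though the gap between them was under 2 RPM. miR-1981-5p was at 75.6, 72.2 and 57.8 RPM at 2M and at 60.0, 65.8 and 66.5 RPM at 18M. miR-702-3p was at 47.2, 45.3 and 43.2 RPM at 2M and at 42.4, 42.4 and 42.7 RPM at 18M, again without overlap and with the 2M libraries higher. miR-877-5p was at 25.01, 21.6 and 30.03 RPM at 2M and at 43.5, 24.5 and 23.3 RPM at 18M, where 18M replicate 1 stood above the other 5 libraries. miR-3102-5p, at 0.524 to 1.35 RPM, was rare in all 6 libraries.

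The order of the levels was miR-320-3p, miR-484, miR-3102-3p, miR-877-3p, miR-1981-5p, miR-702-3p, miR-877-5p and miR-3102-5p. In 5 of its 7 steps the ranges of the neighbours did not overlap over the 6 libraries. The ranges of miR-877-3p (73.0 ± 3.52 RPM, SD, n = 6) and miR-1981-5p (66.3 ± 6.85 RPM, SD, n = 6) overlapped, with miR-877-3p higher in 5 of 6 libraries, and so did those of miR-702-3p and miR-877-5p. The 8 miRNAs together made up 0.194% to 0.258% of the reads with a miRNA label. The capped-hairpin pair summed to 3.68 to 4.82 times the 6 mirtron products within a library.

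**Figure D1:**
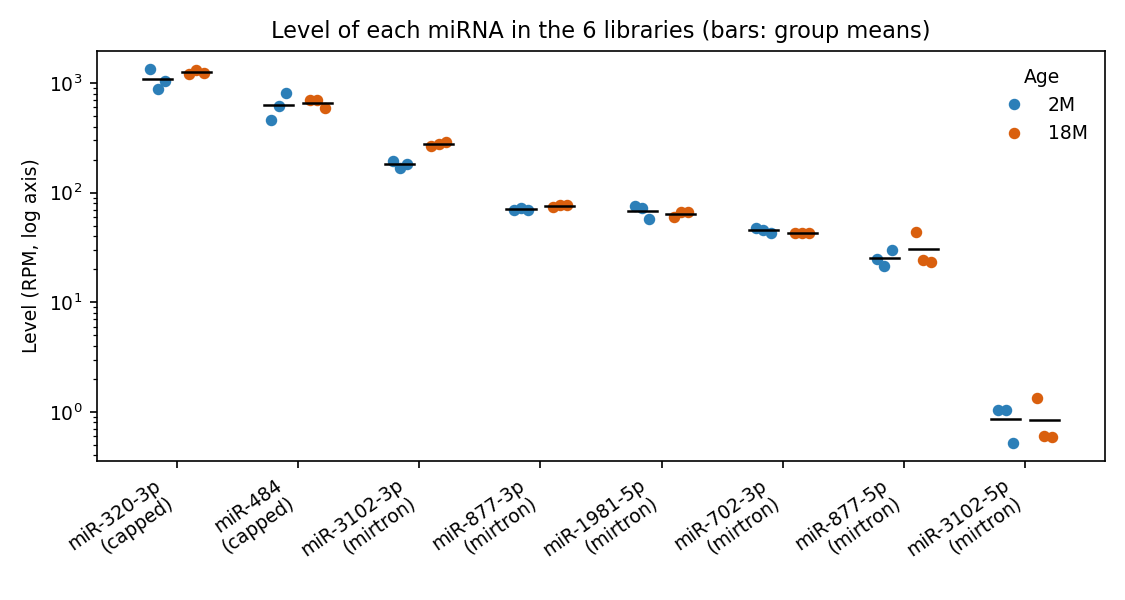
Level of each of the 8 miRNAs in RPM, on a log axis, in the 3 libraries of 2M mice (blue) and the 3 of 18M mice (orange); black bars are group means. The capped-hairpin miRNAs lie above the mirtrons, miR-3102-3p is higher in each 18M library than in each 2M library, and miR-3102-5p lies near 1 RPM.

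To ask whether these miRNAs change in the RISC with age, all labels that averaged 10 RPM or more were fitted together on log2(RPM + 1), where the difference of a low miRNA is understated. Of 474 labels tested, 23 (4.85%) had an adjusted p under 0.05 in limma with Benjamini-Hochberg adjustment, 2 higher (0.422%) and 21 lower (4.43%) at 18M. On the recovered reads, edgeR's quasi-likelihood test called 2.95% of the labels and DESeq2 9.73%, of which 15 of 46 were higher, and miR-3102-3p was called by each. Among the miRNAs of this set 7 were tested, since miR-3102-5p was below the limit. miR-3102-3p was 1 of the 2 called higher and no other was called. Its level averaged 182 ± 11.9 RPM in the 2M and 277 ± 11.3 RPM in the 18M libraries (SD, n = 3), a log2 difference of 0.60 (SE 0.11). This gain was known when the set was chosen and is given as a description. The call did not hold when any 1 of the 6 libraries was left out, when adjusted p-values of limma were 0.0732 to 0.166.

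The other 6 had log2 differences from -0.09 (SE 0.10, miR-702-3p) to 0.23 (SE 0.17, miR-320-3p), and their adjusted p-values in limma were 0.506 to 0.832. The difference of miR-320-3p was 0.09 without 2M replicate 2, its low library, and 0.39 without 2M replicate 1. Of the others, miR-484 had a log2 difference of 0.11 (SE 0.22), which turned to -0.10 without 2M replicate 1. miR-877-5p had 0.20 (SE 0.26), which turned to -0.08 without 18M replicate 1, its high library. The log2 differences of miR-702-3p and of miR-1981-5p (-0.09, SE 0.13) became 0.01 or less, on the other side of 0, under median-of-ratios scaling of the libraries and in DESeq2. When a 2M library was left out, that of miR-1981-5p ran from -0.20 (replicate 3) to -0.01 (replicate 1). The median difference of the 7 tested miRNAs was 0.11, and that of all 474 labels was -0.07. Groups without overlap were seen in 3 of the 7, against 118 of the 474 labels (24.9%). In tissue, fewer cells that make a miRNA and less of that miRNA per cell cannot be told apart.

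The sum of the mirtrons was 411, 382 and 384 RPM at 2M and 486, 488 and 497 RPM at 18M, with no overlap and a log2 difference of 0.32 (exact permutation test, two-sided, p = 0.1, the smallest that 3 against 3 allows). Of this sum, miR-3102-3p made up 46.4% ± 1.84 in the young and 56.4% ± 1.73 in the old mice (SD, n = 3). Its gain was known when the set was chosen, so the sum's difference is a description and its test gives no independent support. Without miR-3102-3p the sum was 210.3 ± 9.08 RPM in the young and 214 ± 6.60 RPM in the old mice (SD, n = 3), a log2 difference of 0.02 (exact permutation test, p = 0.6). The capped-hairpin pair summed to 1708 ± 197 RPM in the young and 1912 ± 85.2 RPM in the old mice (SD, n = 3; log2 difference 0.17, exact permutation test, p = 0.2), and the ages overlapped. This difference was 0.07 without 2M replicate 2, and 0.26 under median-of-ratios scaling (exact permutation test, p = 0.1).

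Because miR-3102-3p shares its intron with 3 other products, their levels were set beside it. Mir3102 gave an outer pair, miR-3102-5p at the first base of the intron and miR-3102-3p at its end, and an inner pair, named miR-3102-5p.2-5p and miR-3102-3p.2-3p. The inner pair is shown here with the seed in capitals.
miR-3102-5p.2-5p: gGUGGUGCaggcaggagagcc
miR-3102-3p.2-3p: cUCUACUCccugccccagcca
miR-3102-5p.2-5p was at 22.3, 20.01 and 20.1 RPM at 2M and at 19.97, 20.1 and 19.1 RPM at 18M. miR-3102-3p.2-3p was at 36.6, 26.0 and 27.1 RPM at 2M and at 26.8, 35.9 and 29.2 RPM at 18M, and the ages overlapped for each of the inner products. Their log2 differences were -0.07 (SE 0.11) and 0.04 (SE 0.18), with adjusted p-values of 0.771 and 0.923 in limma. The ratio of miR-3102-3p to the inner pair was 3.27, 3.68 and 3.90 at 2M and 5.66, 4.97 and 5.94 at 18M. Within the outer pair, miR-3102-3p was at least 99.4% of the reads in each library.

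**Figure D2:**
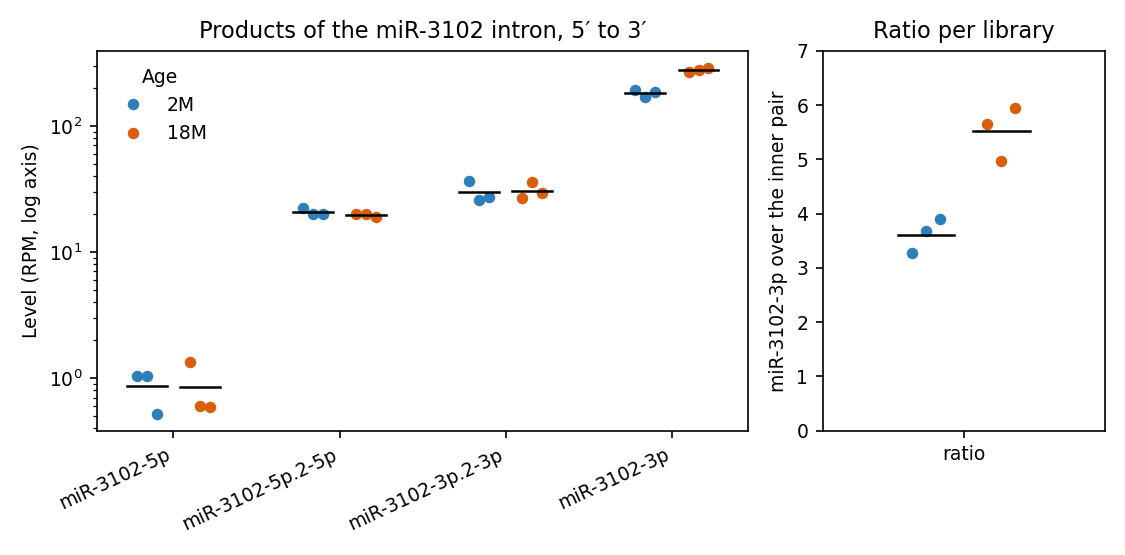
Left, level in RPM (log axis) of the 4 products of the miR-3102 intron, in their order from the 5′ to the 3′ end, in the 2M (blue) and 18M (orange) libraries; right, the ratio of miR-3102-3p to the sum of the inner pair in each library; black bars are group means. miR-3102-3p is higher in all 18M libraries, the other products overlap between the ages, and the ratio runs from 3.27 to 3.90 at 2M and from 4.97 to 5.94 at 18M.

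A second annotation column of the deposited table assigns each read to an RNA class, and there 99.98% of the miR-3102-3p reads were called piRNA and all reads of miR-3102-5p were called mRNA. For miR-484, miR-877-5p, miR-702-3p and miR-1981-5p every read was in the miRNA class. The piRNA class as a whole was at 1585 ± 53.4 RPM in the young and 1754 ± 67.0 RPM in the old mice (SD, n = 3), and miR-3102-3p supplied 94.7 of the 169 RPM between the means, or 56.0%. Without its reads the class was at 1403 ± 42.4 RPM and 1477 ± 64.3 RPM (SD, n = 3), and the ages overlapped (exact permutation test, p = 0.3).

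Single read sequences showed how a miRNA is distributed over its ends. Of 3281 sequences tested, 12 (0.366%) were called in limma, 7 of them higher at 18M (0.213%). None was among the 23 tested sequences of this set, of which 5 had an unadjusted p under 0.05, against 428 of all tested sequences (13%). All 4 tested sequences of miR-3102-3p had log2 differences between 0.48 and 0.62, with adjusted p-values of 0.169 or above. They began at the same base and ended at 3 neighbouring bases of the intron, or at its last base with an added U. The 9 tested sequences of miR-320-3p ran from -0.09 to 0.56 and the 5 of miR-484 from -0.01 to 0.30 on the log2 scale.

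Next, the arms were compared. In Mir877 the 3p arm held 73.4%, 77.0% and 69.6% of the reads of both arms at 2M and 63.1%, 75.8% and 76.7% at 18M, and the ages overlapped (exact permutation test, p = 0.8). The low value was that of 18M replicate 1, the library with the high miR-877-5p. In Mir1981 the 5p arm was the larger, at 66.3 RPM on average beside 19.9 RPM for miR-1981-3p. miR-702-5p was at 0.137 to 0.363 RPM and miR-320-5p at 0.0430 to 0.156 RPM, levels of a few reads. The dominant arm was thus the 3p arm in Mir877, Mir3102, Mir702 and Mir320 and the 5p arm in Mir1981. The label miR-484 names no arm, and its most abundant read lay at bases 5 to 26 of the Mir484 hairpin, on the 5′ side.

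The 5′ end of a read sets its seed, so the first bases were mapped on the hairpins. A read was placed when at least 15 bases matched the hairpin and at most 3 further bases followed, and 98.6% to 100% of the reads of each miRNA were placed in each library. For miR-877-5p, miR-1981-5p and miR-702-3p, 99.1% to 99.7% of placed reads began at the reference base (mean of 6 libraries), against a median of 96.8% over the 404 tested labels that could be placed. The 5p arms among them begin at the splice donor. miR-484 began at its reference base in 98.5% of reads, miR-3102-3p in 95.5% and miR-320-3p in 94.3%. The reference of miR-320-3p was its own most abundant read.

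miR-877-3p differed from the others. It began at hairpin base 63, the reference start, in 61.6% of its reads and at base 65 in 36.7% (mean of 6 libraries), and 51 of the 404 labels (12.6%) had a lower share at the reference start. Reads from base 63 were at 43.2, 44.5 and 42.4 RPM at 2M and 44.2, 48.2 and 46.6 RPM at 18M, and reads from base 65 at 24.5, 26.6 and 24.8 RPM at 2M and 28.8, 27.1 and 28.8 RPM at 18M. The share at base 63 overlapped between the ages (exact permutation test, p = 0.5). The 6mer seed, read bases 2 to 7, was GUCCUC from base 63 and CCUCUU from base 65. The table gives each 6mer seed a viability, the percent of cells that survive an siRNA with that seed in the authors' screen over mouse cell lines. It was 8.2% for GUCCUC and 66.1% for CCUCUU.

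**Figure D3:**
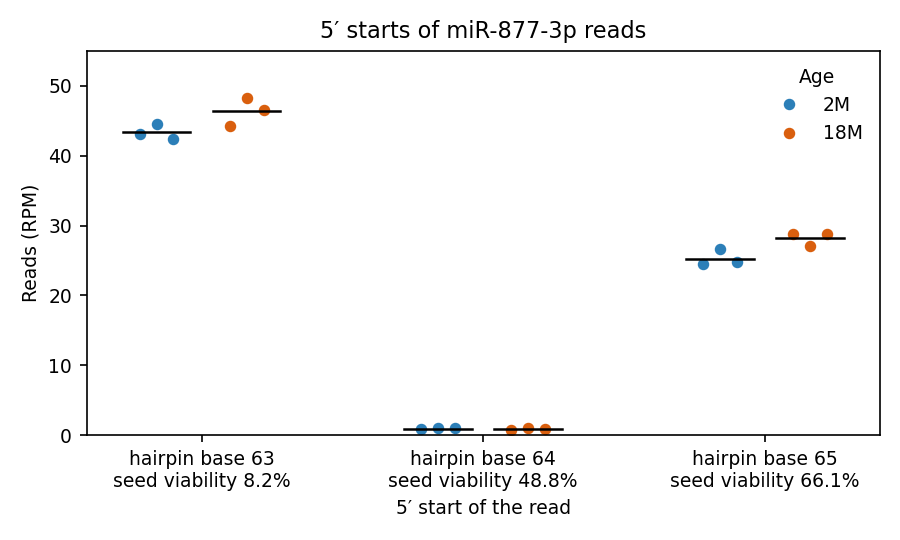
RPM of miR-877-3p that begin at hairpin base 63, 64 or 65, with the viability of the resulting 6mer seed, in the 2M (blue) and 18M (orange) libraries; black bars are group means. Each library has its most reads at base 63 and its next most at base 65, where the seed viability is 66.1% in place of 8.2%.

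Weighted by reads, the mean seed viability of miR-877-3p was 30.2%, and 47 of the 404 placed labels (11.6%) were lower. miR-484 stood at 34.0%, miR-702-3p at 37.2%, miR-877-5p at 47.4%, miR-3102-3p at 51.0%, miR-320-3p at 54.6% and miR-1981-5p at 66.4%, against a median of 61.5% over the 404 labels.

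The start of a miR-877-3p read went along with its other end. Of the reads from base 65, 88.5% to 93.2% per library reached the last base of the intron, against 22.7% to 28.6% of the reads from base 63. An untemplated base after that last base was present in 77.2% of the reads from base 65 and in 14.2% of those from base 63 (means of 6 libraries). In the transcripts of the 4 host genes and of Vwa5b2 the next exon begins with G, so a U or A after the AG of the intron is not encoded there.

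Reads with these ends, picked after their values were seen, show the splice acceptor at the 3′ end, with the last 2 bases of the intron in capitals and an added base after them in lower case.
miR-877-3p from base 63: uguccucuucucccuccucccAG
miR-877-3p from base 65, added U: uccucuucucccuccucccAGu
miR-3102-3p: gagcaccccauuggcuacccacAG
miR-3102-3p, added U: gagcaccccauuggcuacccacAGu
miR-702-3p: ugcccacccuuuaccccgcuccAG
miR-702-3p, added U: ugcccacccuuuaccccgcuccAGu
The sequence with the added U was the most abundant of all for miR-877-3p, at 16.3 RPM or 22.4% of its reads, and for miR-702-3p, at 12.2 RPM or 28.0%. For miR-3102-3p the most abundant sequence, at 94.96 RPM or 41.7%, stopped 1 base before the end of the intron.

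Addition of U to the 3′ end of pre-miRNA hairpins by terminal uridylyltransferases is a known step in miRNA turnover. In the 3p arms, the last intron base followed by a single U was seen in 28.2% of miR-877-3p reads, 10.4% of miR-3102-3p reads, 28.8% of miR-702-3p reads and 11.5% of miR-1981-3p reads (means of 6 libraries). The same form made up 79.5% of the reads of miR-1224-3p, the 3p arm of a further mirtron in Vwa5b2, and was between 77.0% and 82.3% in each library. A single A at this place was rarer, at 1.28% to 7.25%, and no placed read went on into the next exon. The last 2 bases of the miR-702 intron lie outside its annotated hairpin and were allowed to be any base. By level, 90.1% of the reads that reached them had AG there.

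**Figure D4:**
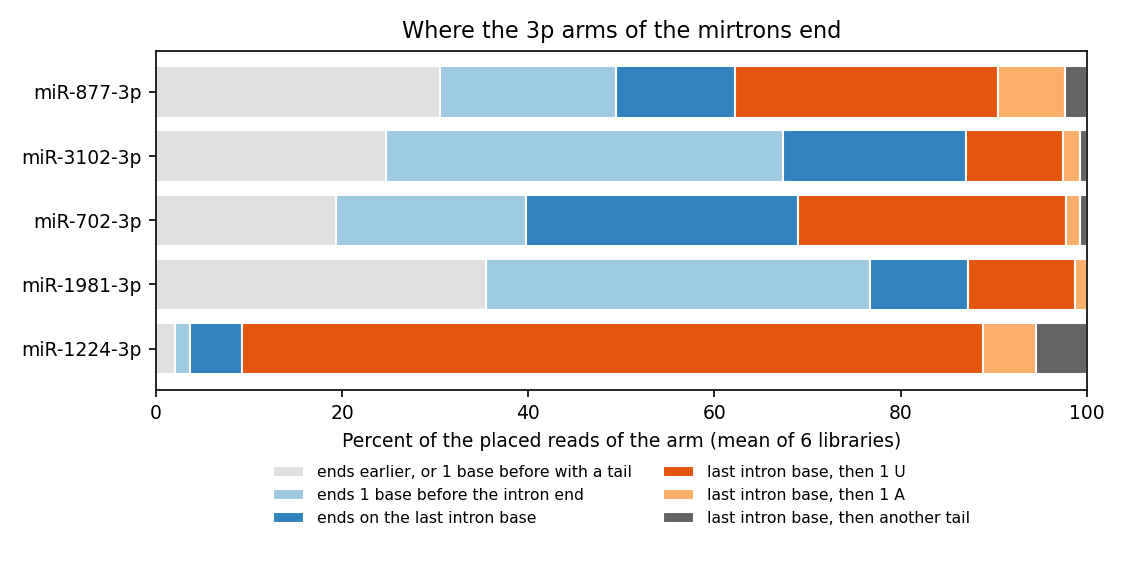
Share of the placed reads of each mirtron 3p arm, in percent (mean of 6 libraries), by where they end relative to the last base of the intron and by the base added after it. Reads with the last intron base and 1 U (dark orange) are 28.2% for miR-877-3p, 28.8% for miR-702-3p and 79.5% for miR-1224-3p, and 10.4% for miR-3102-3p, where reads that end 1 base earlier are 42.7%.

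A 3′ tail was counted as 1 to 3 bases at the end of a read that do not match the template. Tails were present in 59.1% of miR-877-3p reads, 38.7% of miR-877-5p reads, 32.8% of miR-702-3p reads, 30.6% of miR-320-3p reads, 21.5% of miR-484 reads, 19.2% of miR-3102-3p reads and 16.4% of miR-1981-5p reads (means of 6 libraries). The share of miR-702-3p was 38.7% when the last 2 bases of its intron were taken as AG in place of any base. The median over the 404 labels was 11.5%, and all 7 miRNAs were above it. The kind of tail differed. In miR-320-3p and miR-484 tails of U alone were on 24.1% and 16.4% of reads and tails of A alone on 1.12% and 1.58%. miR-877-5p had the opposite pattern, with A on 22.9% of reads and U on 9.20%, and 400 of the 404 labels (99.0%) had a lower share of A tails. The inner product miR-3102-3p.2-3p carried U tails on 66.5% of reads.

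**Figure D5:**
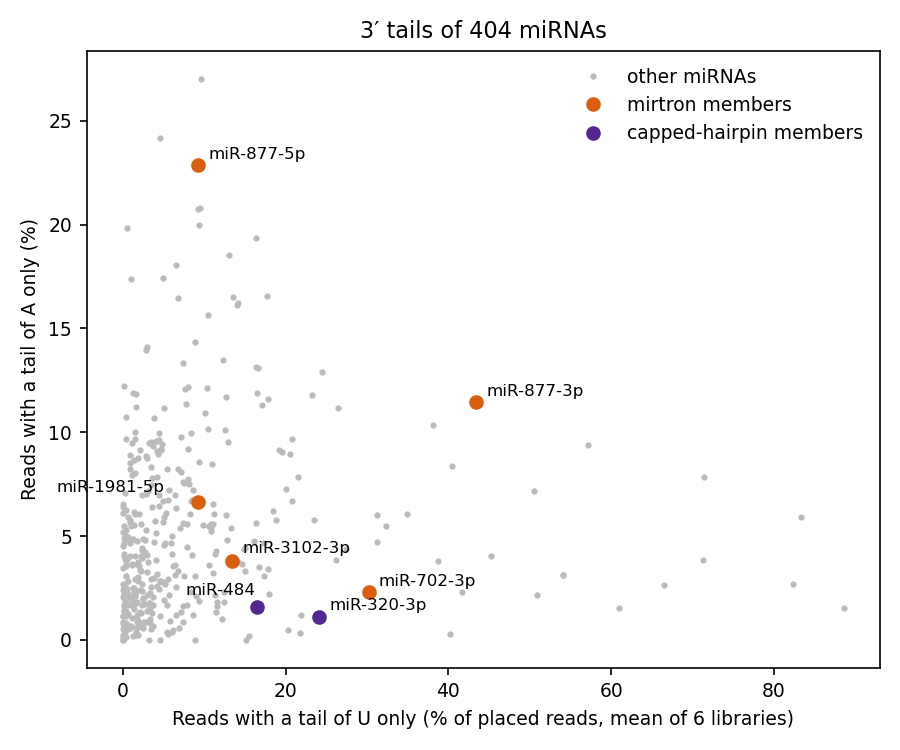
Share of placed reads with a tail of U only (horizontal axis) and of A only (vertical axis), in percent and as the mean of 6 libraries, for the 404 tested miRNA labels that could be placed; mirtrons of the set are orange, capped-hairpin miRNAs purple and other labels grey. miR-877-3p lies at 43.4% U tails, above 389 of the 404 labels, and miR-877-5p near the top, at 22.9% A tails, while miR-320-3p and miR-484 lie near 1% A tails.

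Mirtrons and capped-hairpin miRNAs were then compared within each library over the summed reads of each class, which speaks for these members only. The share of reads with the reference 5′ end was 91.0% ± 0.437 in the mirtrons and 95.8% ± 0.391 in the capped-hairpin pair (SD, n = 6), lower in the mirtrons in 6 of 6 libraries (difference -4.77 percentage points, exact sign-flip permutation test, two-sided, p = 0.0312, the smallest that 6 libraries allow). Without miR-877-3p, which was left out only once these values had been seen, the share of the mirtrons was 97.0%. The difference then turned to 1.14 points, a description only, as the choice followed the values. The share with a 3′ tail was 28.1% ± 0.974 and 27.2% ± 1.38 (SD, n = 6), higher in the mirtrons in 5 of 6 libraries (difference 0.875 points, exact permutation test, p = 0.0625). It was 0.456 points without 2M replicate 3. Without miR-877-3p the tail difference also turned, to -5.35 points, and it rose to 6.50 points when each miRNA had equal weight. Tails of A alone were on 6.17% to 6.98% of mirtron reads and on 1.13% to 1.38% of capped-hairpin reads, with no overlap. By miRNA they were on 22.9% of miR-877-5p, 11.5% of miR-877-3p, 6.62% of miR-1981-5p, 3.78% of miR-3102-3p and 2.31% of miR-702-3p reads. miR-3102-3p and miR-702-3p lay below the median of 4.05% over the 404 labels, as did both capped-hairpin miRNAs (means of 6 libraries). Over the summed reads, tails of U alone went the other way. They were on 19.2% ± 1.04 of mirtron reads and 21.3% ± 1.55 of capped-hairpin reads (SD, n = 6), lower in the mirtrons in 6 of 6 libraries. Single mirtrons lay on both sides of the capped-hairpin pair (24.1% of miR-320-3p and 16.4% of miR-484 reads). miR-877-3p (43.4%) and miR-702-3p (30.2%) were above both. So was the mean of the rare miR-3102-5p (28.8%), though its share ran from 7.71% in 18M replicate 1 to 46.2% in 18M replicate 3. miR-3102-3p (13.4%), miR-1981-5p (9.22%) and miR-877-5p (9.20%) were below both (means of 6 libraries). U tails were not compared with equal weight for each miRNA.

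By age, each reference 5′ end share and each share with any tail overlapped, for the classes and for each tested miRNA. The share with tails of A alone was not among the measures compared by age. For miR-3102-3p, seen afterwards, it was 2.97%, 3.35% and 3.46% at 2M and 4.20%, 4.34% and 4.38% at 18M. These values did not overlap, and the difference was not tested. The reference 5′ end share of the mirtrons was 90.8% ± 0.404 in the young and 91.3% ± 0.252 in the old mice (SD, n = 3; exact permutation test, p = 0.2), and their tail share was 28.5% ± 0.210 and 27.7% ± 1.37 (SD, n = 3; exact permutation test, p = 0.5). For the capped-hairpin pair the 5′ end share was 96.1% ± 0.168 and 95.5% ± 0.371 (SD, n = 3; exact permutation test, p = 0.2) and the tail share 27.2% ± 1.72 and 27.2% ± 1.35 (SD, n = 3; exact permutation test, p = 1). The 23 per-library measures compared held the sums, their ratio and the arm shares. They also held the reference 5′ end and tail shares of each class and of each tested miRNA. Among the 23, only the sum of the mirtrons, which holds miR-3102-3p, did not overlap between the ages. The smallest p adjusted over them was 0.657 (exact permutation tests), but with 3 against 3 none could have fallen below 0.1.

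The other miRNAs of unusual origin were set beside the set. Of the 8 tested (miR-1224-5p and miR-1224-3p from a mirtron, miR-1839-5p, miR-1839-3p, miR-664-3p and miR-664-5p from snoRNAs, miR-1983 from a tRNA, and miR-451a, which is cut by Ago2 in place of Dicer), none was called in limma and 1 had an unadjusted p under 0.05, against 85 of all 474 labels (17.9%). miR-1983 was at 361, 479 and 521 RPM at 2M and at 397, 276 and 298 RPM at 18M, a log2 difference of -0.49 (SE 0.20, limma adjusted p = 0.276). miR-451a had -0.60 (SE 0.38, limma adjusted p = 0.442). Of the 5 other arms of the members' hairpins 3 were tested, with log2 differences from -0.15 to 0.04, and none was called or had an unadjusted p under 0.05, a count too small to read against the 17.9% of all labels.

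Among the other 467 tested labels, those whose levels ran most alike with the summed mirtrons over the 6 libraries were miR-203-3p, miR-29b-2-5p and miR-7047-3p, with Pearson's r of 0.99, 0.97 and 0.94 on log2(RPM + 1). For the capped-hairpin sum they were miR-1298-3p, miR-204-3p and miR-187-3p, with r of 0.97, 0.96 and 0.96. These are descriptions over 6 libraries that share their age groups.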

How the data were processed

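The authors made the table by demultiplexing and trimming the reads (Trim Galore in the submitters' notes), collapsing identical reads, removing rare ones and matching them to mouse small RNA lists in the SPOROS pipeline. Tool versions are not given in the sources used here. The deposited values are RPM per read sequence, scaled by the authors to the same total in each library, and the deposited seed viability is a score in percent. Values lay within 0.0129 of a step of whole multiples of what 1 read is worth (100% of values), which gave back the read counts. Libraries were grouped by the age in their titles. The members and lists were chosen with earlier results of these data known. Named sequences were by rule the most abundant read of a member and the most abundant with another start or a tail. The printed reads that end on the AG of the intron without a tail were added after their values were seen.

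RPM were summed per miRNA label and fitted on log2(RPM + 1) with limma 3.58.1 (eBayes with trend) in R 4.3.3 for labels averaging 10 RPM or more, calling Benjamini-Hochberg adjusted p-values under 0.05. Tested on simulated data for 18M against 2M (3175 sequences), the fit called 180 of 180 tested sequences changed by 2 on the log2 scale (200 were changed) and 9 of 2995 unchanged ones. Smaller changes were not simulated. Per-library shares were compared with exact permutation tests. Sequences came from RefSeq and loci from GENCODE M21. Alternatives were pseudocounts of 0.1 and 5, other minimum levels, median-of-ratios scaling, the replicate block, limma without trend, edgeR 4.0.16 and DESeq2 1.42.0 on the recovered reads, single-label rows, reference starts, and leaving out each library. The labels number 3 libraries per age without naming the animals, so p-values measure the spread between these libraries. The reference 5′ end of miR-320-3p, which was not in the RefSeq table, was the start of its most abundant read.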

Additional observations from a re-analysis of the deposited data

Results flagged for a closer look

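Reads on the hairpins of capped-hairpin miRNAs were found outside every miRNA label. On the mir-320 hairpin, 117 read sequences without a label held 16.6 RPM on average (14.1 to 19.0 RPM per library). On the mir-484 hairpin, 58 such sequences held 8.96 RPM (7.24 to 10.4 RPM). Each of the 6 libraries was above the level of 3 reads, and none of these reads entered the values of the report. Dixon's test of stray samples was not run, since each group has 3 libraries.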

How the results depend on the processing

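The gain of miR-3102-3p kept its direction in every alternative but not its call. Its log2 difference of 0.60 was not called with a mean of at least 100 RPM (limma adjusted p = 0.0738), with no filter on low values (0.0582) or with the replicate block (0.167), and without each library in turn it was 0.55 to 0.65 (0.0732 to 0.166). It was called by edgeR (0.0390) and DESeq2 (2.67e-06). The cause was not tested. In those 3 settings and without any 1 library the number of members called was 0, and over all labels 0 to 46 were called across the alternatives, against 23. Of these counts, 1 was with the replicate block, 2 with at least 100 RPM, 3 without a filter and 46 by DESeq2. Deviations of libraries with equal replicate numbers correlated at -0.17, -0.22 and -0.10, so no shared shift was seen. The labels do not say whether equal numbers were handled together, and these correlations cannot settle it. Under the replicate block no other member changed its call, while the labels called fell from 23 to 1 and the read sequences from 12 to 0. Leaving out libraries turned miR-484 (-0.10 to 0.31) and miR-877-5p (-0.080 to 0.35), while miR-320-3p ran from 0.09 to 0.39, miR-1981-5p from -0.20 to -0.01 and the capped-hairpin sum from 0.07 to 0.23. Median-of-ratios scaling moved the median of all labels by 0.09 on the log2 scale. miR-702-3p became 0.0065 with it and 0.0071 in DESeq2, and miR-1981-5p 0.0076 and 0.0018. The log2 difference of the summed mirtrons was 0.42 with that scaling and 0.024 without miR-3102-3p, and their ratio to the capped-hairpin sum then went from 0.15 to -0.14. The 3p share of miR-3102 by age was 3.02 points with the inner pair added, and the 5′ end share of the capped-hairpin pair -0.047 points when starts within 1 base counted. In the class comparison the 5′ end difference was -7.28 points when starts within 1 base counted and -4.93 to -4.57 points without each library in turn, where 5 libraries cannot pass the threshold (exact permutation p = 0.0625). The tail difference was 0.456 to 1.11 points without each library in turn, 6.09 points for single-base tails, 6.50 with members weighted equally and 1.48 with AG at the end of the miR-702 intron, these last 3 each with exact permutation p = 0.0312. Without miR-877-3p, an addition made after seeing the data like the AG and inner-pair settings and the start within 1 base in the class comparison, these differences were 1.14 and -5.35 points. miR-320-5p and miR-702-5p were near the 0.120 to 0.156 RPM that 3 reads are worth.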
